A study of Homo sapiens with 9 samples.

Results

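The angiomotin family and the core genes of the Hippo-YAP pathway were followed as a set of 10 genes among the 26625 genes with a symbol in the deposited tables. They are AMOT, AMOTL1 and AMOTL2, the transcriptional regulators YAP1, WWTR1 and TEAD1, the kinases LATS1 and LATS2, and the target genes CCN1 and CCN2. The genes were listed by symbol, and for each the RefSeq transcript entry with most reads was kept. The members were chosen by symbol but selected on measured values too: the large gap in AMOT reads between HEK293T T12 and A549 T12 was already known, so the values of A549 against HEK293T are a description and carry no test.

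The libraries were made by CLT-seq, which primes total RNA from cultured cells with an oligo(dT) primer that carries an adaptor. HEK293T, derived from human embryonic kidney and transformed in culture, is labelled wild type and grown in high-glucose DMEM with serum. A549 is a human lung carcinoma line, labelled with its own medium, F-12K with serum, so cell line and medium cannot be told apart. Gene counts were analysed for 7 of the 9 libraries. HEK293T was primed with T12, T18 or T30, which end in 12, 18 or 30 T without an anchor, and with T18V, T18VN or T18VNN, which end in 1, 2 or 3 anchor bases after 18 T. A549 was primed with T12 only. Each primer and cell line thus had 1 library with gene counts, and no treatment was given to any group in the labels.

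The Hippo pathway is a kinase cascade in which LATS1 and LATS2 phosphorylate the coactivators YAP and TAZ (the product of WWTR1) and keep them out of the nucleus. Unphosphorylated YAP and TAZ bind TEAD factors at genes such as CCN1 and CCN2, which encode secreted matricellular proteins. Angiomotins are scaffold proteins of cell junctions and the actin cytoskeleton that bind YAP and TAZ and also activate LATS kinases. The RNA levels given here do not measure phosphorylation or where a protein is in the cell.

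Reads on genes ranged from 1498224 in A549 to 5200705 in HEK293T T18. A level is given as CPM, the reads of a gene scaled to 1000000 reads on genes. A count of 3 reads, used as the floor, is worth 2.00 CPM in A549 and 0.577 CPM in HEK293T T18. The cell line labels were checked on markers. All 7 A549 markers (KRT8, KRT18, KRT19, AKR1B10, AKR1C1, ALDH1A1 and TGFBI) lay above every HEK293T library in A549. Of 6 HEK293T markers, 4 (NEFL, NEFM, LIN28B and PAX2) lay below every HEK293T library, SALL4 lay above (12 reads against 0 with HEK293T T12), and DLK1 had 0 reads in all 7 libraries.

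The promoters below are shown because TEAD factors, which carry YAP and TAZ to DNA, recognise the motif GGAATG, which reads CATTCC on the other strand. RefSeq windows of 250 bases before to 50 bases after the gene start (GRCh38.p14) were at hand for 8 of the 10 genes, 11 windows in all; CCN1 and TEAD1 are named only. The motif was searched on both strands and was present in 14.0% of the 35116 windows of all genes. It was present in 4 of the 11 windows, 1 each of CCN2, YAP1, AMOTL2 and LATS2. CCN2 held 3 copies, whose first bases lie 169, 104 and 95 bases before the start, and no other window of these genes held more than 1. In LATS2 the copy begins after the start and its window is not printed. The 250 bases before the start are printed 5′ to 3′ on the strand of the gene, with the motif in capitals. They lie at chr6:131951373-131951622 (minus strand) for CCN2, chr11:102110197-102110446 (plus strand) for YAP1 and chr3:134374448-134374697 (minus strand) for AMOTL2.
CCN2: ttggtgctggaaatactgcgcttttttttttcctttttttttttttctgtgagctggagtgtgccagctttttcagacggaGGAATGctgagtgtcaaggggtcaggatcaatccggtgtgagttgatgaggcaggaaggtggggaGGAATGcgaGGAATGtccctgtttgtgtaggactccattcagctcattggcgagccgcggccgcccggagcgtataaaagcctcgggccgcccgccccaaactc
YAP1: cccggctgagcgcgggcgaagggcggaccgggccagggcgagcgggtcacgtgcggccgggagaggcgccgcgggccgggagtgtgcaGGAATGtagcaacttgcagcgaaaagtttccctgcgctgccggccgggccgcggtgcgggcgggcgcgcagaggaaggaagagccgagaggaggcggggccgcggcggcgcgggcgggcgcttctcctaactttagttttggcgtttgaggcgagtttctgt
AMOTL2: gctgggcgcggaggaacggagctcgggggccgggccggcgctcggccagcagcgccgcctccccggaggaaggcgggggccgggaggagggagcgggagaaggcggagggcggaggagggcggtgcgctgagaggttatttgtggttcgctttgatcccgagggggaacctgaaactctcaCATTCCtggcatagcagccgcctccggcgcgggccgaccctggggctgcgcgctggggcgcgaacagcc
A match describes these letters only, and binding was not measured.

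AMOT, the founding angiomotin, was among the most abundant transcripts of HEK293T and nearly undetected in A549. It lies on chromosome X at 112018105 to 112084043, minus strand (hg19, as are all gene positions that follow). AMOT had 2902 CPM with T12, 2143 CPM with T18, 2794 CPM with T30, 2236 CPM with T18V, 2524 CPM with T18VN and 2975 CPM with T18VNN. The level in A549 was 1.33 CPM, from 2 reads, with an exact 95% binomial interval of 0.162 to 4.82 CPM. The interval covers counting error only, as do all intervals here. In CPM, the 6 HEK293T libraries lie close together and the A549 library lies far below them. With 9477 reads in HEK293T T12, AMOT was 2174-fold lower in A549 (95% exact interval of the ratio 602 to 17953). Ranked by reads, AMOT was between rank 22 (T18VNN) and rank 43 (T18V) of all genes in the HEK293T libraries. In bulk RNA, fewer cells that express a gene and less RNA per cell cannot be told apart.

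The AMOT count does not separate its isoforms. Both RefSeq entries, of 6514 and 6945 bases, share nearly all their reads, with 9477 and 9475 in HEK293T T12 and 2 each in A549. A microRNA gene within the AMOT span, MIR4329, had 0 reads in all 7 libraries, so the AMOT count is not mixed with counts of that entry.

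AMOTL1 and AMOTL2 are the other angiomotins, with related scaffold roles at junctions, and the gap between cell lines was not of one direction. AMOTL1 (chromosome 11, 94501508 to 94609918, plus strand) had 126 CPM with T12, 79.0 CPM with T18, 135 CPM with T30, 160 CPM with T18V, 78.6 CPM with T18VN and 95.4 CPM with T18VNN. A549 gave 25.4 CPM, from 38 reads. The A549 value lies below all 6 HEK293T values, and it was 4.99-fold lower than in HEK293T T12 (interval 3.57 to 7.15).

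AMOTL2 (chromosome 3, 134074187 to 134093427, minus strand) was a low transcript in both lines. It had 5.21 CPM with T12, 7.31 CPM with T18, 2.71 CPM with T30, 13.5 CPM with T18V, 7.81 CPM with T18VN and 7.51 CPM with T18VNN. In A549 it had 13.3 CPM, from 20 reads. It was 2.56-fold higher in A549 than in HEK293T T12 (interval 1.28 to 5.21), but the A549 value lies within the range of the HEK293T primers, just under T18V. Against T18V the log2 ratio of CPM + 1 was -0.02. On this scale, which understates changes of low genes, AMOTL2 fell under the 2-fold threshold with TMM (0.98) or library total scaling (0.56).

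Per transcript length, in the deposited FPKM, the make-up of the family differed between the lines. AMOT was 94.4% (T18V) to 97.4% (T18VN and T18VNN) of the summed FPKM of the 3 angiomotins in HEK293T. In A549 it was 3.60%, while AMOTL1 was 49.5% and AMOTL2 46.9%. Only 60 angiomotin reads stood behind the A549 shares, against 6497 to 11699 in the HEK293T libraries. How evenly the reads cover each transcript was not measured here, and it affects a level per length.

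**Figure D1:**
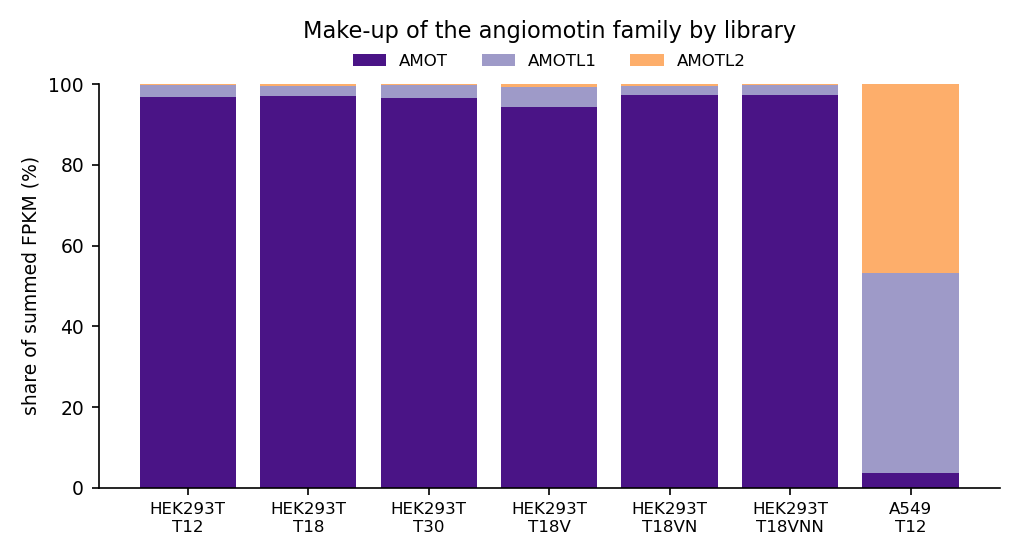
Share of the summed FPKM (%, y axis, stacked bars) of AMOT, AMOTL1 and AMOTL2 in each of the 7 libraries, with no replicates. AMOT fills 94.4% or more of every HEK293T bar and 3.60% of the A549 bar, which rests on 60 reads.

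YAP1 and WWTR1, which encode the coactivators YAP and TAZ, and TEAD1, which encodes their DNA-binding partner, were low in HEK293T and higher in A549. YAP1 (chromosome 11, 101981192 to 102104154, plus strand) had 8.88 CPM with T12, 9.04 CPM with T18, 11.7 CPM with T30, 9.61 CPM with T18V, 15.8 CPM with T18VN and 13.6 CPM with T18VNN. The A549 library gave 91.4 CPM, from 137 reads. YAP1 in A549 was 10.3-fold above HEK293T T12 (interval 6.86 to 15.9) and 5.77-fold above the highest HEK293T library.

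WWTR1 (chromosome 3, 149235022 to 149375888, minus strand) had 5.82 CPM with T12, 0.577 CPM with T18, 5.87 CPM with T30, 5.69 CPM with T18V, 10.3 CPM with T18VN and 5.56 CPM with T18VNN. A549 cells had 68.7 CPM, from 103 reads. The T18 library stands apart at 3 reads, the floor, although it is the deepest. WWTR1 in A549 was 11.8-fold above HEK293T T12 (interval 7.20 to 20.4) and 6.70-fold above the highest HEK293T library. Added together, the reads of the 2 coactivators were 160 CPM in A549 and 9.61 to 26.1 CPM in HEK293T.

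TEAD1 (chromosome 11, 12695969 to 12966284, plus strand) had 8.57 CPM with T12, 24.2 CPM with T18, 15.3 CPM with T30, 34.5 CPM with T18V, 19.9 CPM with T18VN and 24.2 CPM with T18VNN. In A549 it had 117 CPM, from 176 reads. T12 is the lowest of the HEK293T libraries for TEAD1, which makes the matched comparison the widest of the 6. The ratio of A549 to HEK293T was 13.7 with T12 (interval 9.16 to 21.2) and 3.40 against the highest HEK293T library, T18V.

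LATS1 and LATS2, the kinases that phosphorylate YAP and TAZ, had A549 to HEK293T T12 ratios of 1.59 and 2.15. LATS1 (chromosome 6, 149979289 to 150039392, minus strand) had 3.37 CPM with T12, 2.31 CPM with T18, 3.61 CPM with T30, 7.12 CPM with T18V, 6.03 CPM with T18VN and 11.96 CPM with T18VNN. The level in A549 was 5.34 CPM, from 8 reads. The A549 value lies among the HEK293T values, and the ratio to T12 had an interval of 0.554 to 4.33. A difference was thus not detectable at this depth, with fewer than 20 reads in either library. A non-coding gene on the opposite strand, LOC645967, overlaps LATS1 and had 10 reads in T18, 5 in T18VN and 0 elsewhere, and no use of strand is stated for the counts.

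LATS2 (chromosome 13, 21547175 to 21635722, minus strand) had 20.2 CPM with T12, 20.0 CPM with T18, 13.5 CPM with T30, 9.61 CPM with T18V, 4.69 CPM with T18VN and 21.4 CPM with T18VNN. A549 gave 43.4 CPM, from 65 reads. A549 lies above all 6 HEK293T libraries, 2.15-fold above T12 (interval 1.5 to 3.07) and 2.03-fold above the highest. With TMM or library total scaling LATS2 was no longer 2-fold higher.

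CCN1 and CCN2, long used as readouts of YAP and TAZ, were both higher in A549. CCN1 (chromosome 1, 86046444 to 86049650, plus strand) had 4.90 CPM with T12, 8.08 CPM with T18, 2.26 CPM with T30, 7.83 CPM with T18V, 7.81 CPM with T18VN and 12.2 CPM with T18VNN. In A549 it had 32.7 CPM, from 49 reads. A549 lies above every HEK293T library, 6.68-fold above T12 (interval 3.73 to 12.6) and 2.67-fold above the highest.

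CCN2 (chromosome 6, 132269316 to 132272518, minus strand), the gene with 3 motif copies in the promoter shown, was close to the floor in 5 of the 6 HEK293T libraries. It had 6.12 CPM with T12, from 20 reads, then 0 with T18, 0.451 CPM with T30, 1.07 CPM with T18V, 0.223 CPM with T18VN and 0.556 CPM with T18VNN. The last 5 values came from 0 to 3 reads each. The A549 library gave 16.0 CPM, from 24 reads. T12 stands apart among the HEK293T libraries, and A549 lies above it. CCN2 in A549 was 2.62-fold above HEK293T T12 (interval 1.38 to 4.99). Under library total scaling its log2 ratio of CPM + 1, a scale that understates changes of low genes, was 0.62, under the 2-fold threshold.

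**Figure D2:**
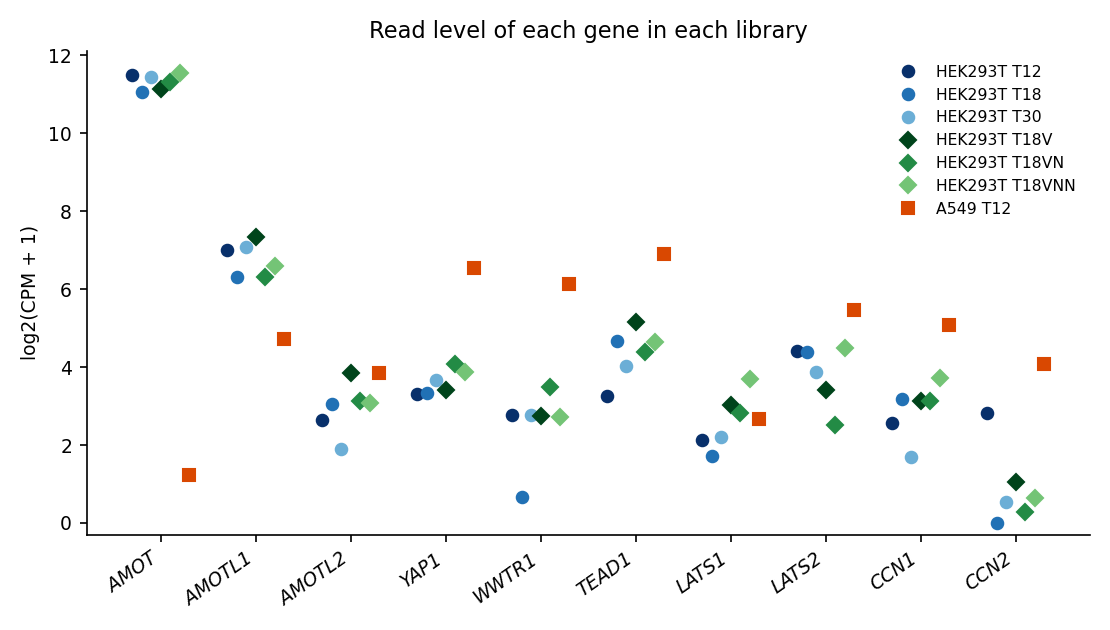
Level of the 10 genes (x axis) as log2(CPM + 1) (y axis), 1 point per library: blue circles are the unanchored and green diamonds the anchored HEK293T primers, and the orange square is A549 T12. The A549 point lies below all HEK293T points for AMOT and AMOTL1, above them for YAP1, WWTR1, TEAD1, LATS2, CCN1 and CCN2, and among them for AMOTL2 and LATS1.

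**Figure D3:**
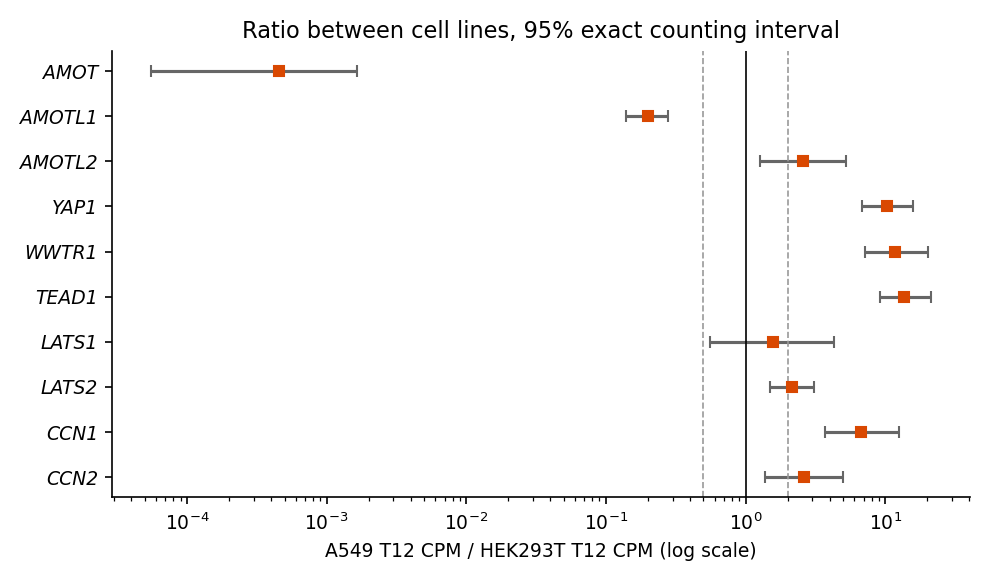
Ratio of CPM in A549 T12 to CPM in HEK293T T12 (x axis, log scale) for each gene, 1 library per cell line, with 95% exact intervals that cover counting error only. The solid line marks equal levels and the dashed lines 2-fold in either direction; the interval of LATS1 spans both a fall and a rise.

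Counted together, 7 of the 9 genes with 20 or more reads in 1 of the T12 libraries were at least 2-fold higher in A549 on the log2(CPM + 1) scale, beside 31% of 10145 genes. The other 2 of the 9, AMOT and AMOTL1, were at least 2-fold lower, beside 29.2% of those genes. Of all 10 genes, 6 lay above every HEK293T library in A549, beside 29.6% of 12325 genes. Another 2 lay below, beside 27.3%. The median log2 ratio of the 9 genes was 1.26, and that of all genes was 0.02. Because these genes were chosen with this contrast known, the counts describe them and support nothing further.

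The order of levels within a library, per transcript length, differed between the lines. In A549 the deposited FPKM ran from YAP1 (2.28) through CCN1 (1.92), WWTR1 (1.81), TEAD1 (1.68), LATS2 (1.05) and CCN2 (0.920) to AMOTL1 (0.379), AMOTL2 (0.359), LATS1 (0.0956) and AMOT (0.0276). AMOT stood first of the 10 in each HEK293T library and last in A549. In HEK293T T12 AMOT had an FPKM of 76.9 and AMOTL1 of 2.43, and the remaining 8 ran from 0.629 (LATS2) to 0.0774 (LATS1). AMOT and AMOTL1 came first and second in all 6 HEK293T libraries, while the order of the other 8 changed with the primer. With 1 library per primer, no spread of replicates is at hand to separate neighbours in these orders.

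Anchored and unanchored primers were next compared in HEK293T, and no change was called for these genes. AMOT averaged 2613 ± 410 CPM (SD, n = 3) with unanchored and 2579 ± 372 CPM (SD, n = 3) with anchored primers. These levels are scaled to reads on genes, which were 11.7 to 20.3% of the library total with unanchored and 27.7 to 37.5% with anchored primers. The deposited FPKM, scaled to the library total, was 50.1 to 76.9 for AMOT with unanchored and 109 to 129 with anchored primers. The primers stand in for replicates, so the p-values measure the spread between primers and not between cultures. In edgeR's quasi-likelihood test with Benjamini-Hochberg adjustment over 10887 genes, 0 of the 9 genes tested passed 0.05, beside 1.35% of all genes (147). At an unadjusted p under 0.05 the count was also 0 of 9, beside 1694 genes overall. DESeq2 also called 0, with an adjusted p for 5 of the 10 genes and 0 of the 10 at an unadjusted p under 0.05. CCN2 did not pass the filter on low counts.

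The fitted log2 fold changes of anchored over unanchored primers lay within 2 standard errors of 0 for all 9 genes tested. Each edgeR standard error was worked back from the test, as the size of the fold change over the square root of F. It thus adds nothing to the p-value. AMOT had -0.19 ± 0.26 (SE, edgeR adjusted p = 0.792), AMOTL1 had -0.20 ± 0.37 (adjusted p = 0.858) and YAP1 had 0.23 ± 0.52 (adjusted p = 0.886). LATS1 had the value farthest from 0, 1.27 ± 0.75 (adjusted p = 0.457), and LATS2 lay on the other side at -0.76 ± 0.59 (adjusted p = 0.598). AMOTL2, CCN1, WWTR1 and TEAD1 lay between 0.52 and 0.73 with standard errors of 0.50 to 0.90. The anchored and unanchored libraries did not overlap for 2 of the 9, AMOTL2 and LATS1, both higher with anchored primers, beside 23.6% of all genes.

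**Figure D4:**
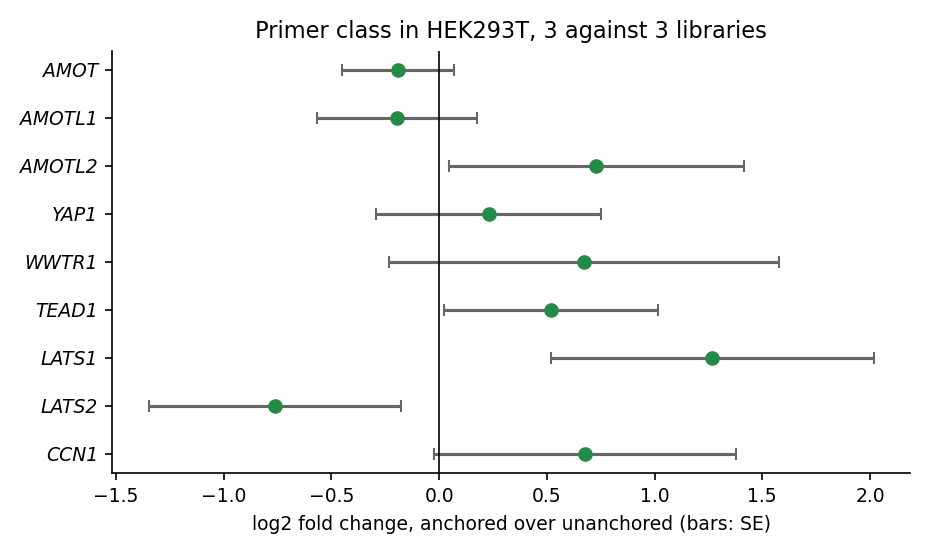
Log2 fold change of anchored (3 libraries) over unanchored (3 libraries) primers in HEK293T (x axis) for the 9 genes tested with edgeR, with bars of 1 standard error. No gene passed an adjusted p of 0.05; LATS1 lies farthest to the right at 1.27 and LATS2 farthest to the left at -0.76.

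Over the 6 HEK293T primers, AMOT and YAP1 varied least in CPM, which is scaled to reads on genes. The highest library was 1.39 times the lowest for AMOT, with a coefficient of variation of 13.5%, and 1.78 times for YAP1. The remaining 8 of the 10 genes varied at least 2-fold, with counts under the floor set to the floor, beside 87% of 11764 genes with a median of 3.98-fold. Scaled to library totals, all 10 varied at least 2-fold, and the share of all genes under that scaling is not given here. In the deposited FPKM, which uses that scaling, AMOT ran from 50.1 (T30) to 129 (T18V). YAP1 ran from 0.254 (T30) to 0.824 (T18VN). AMOT also has by far the most reads of the 10, so its values carry less counting error. WWTR1 spanned 17.8-fold through its 3 reads in T18, and CCN2 at least 10.6-fold through its 20 reads in T12.

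Internal runs of A are given because an oligo(dT) primer can anneal to them as well as to a poly(A) tail. GENCODE release 29 transcripts were matched for 8 of the 10 genes, and WWTR1 and TEAD1 are named only. For each of the 8 the longest matched transcript was searched. The percentages below count protein-coding transcripts of every length, so they are not matched in length to these 8. A run of 12 or more A was present in 5.79% of 83129 protein-coding transcripts and in 1 of the 8, LATS2. It spans transcript positions 4107 to 4119 of 5511, in the 3′ UTR, and is printed here with 30 bases in all and the 13 A in capitals.
LATS2: aataatgtAAAAAAAAAAAAAgataacact
A run of 8 or more A was present in 17.0% of the protein-coding transcripts and in 3 of the 8 genes. These were LATS2 and, with runs of up to 9 A, AMOTL2 and LATS1, while AMOT, AMOTL1, YAP1, CCN1 and CCN2 had none. Whether reads of LATS2 began at this run was not tested. Its CPM was 9.61 and 4.69 with T18V and T18VN, below the 13.5 to 20.2 of the unanchored primers, but 21.4 with T18VNN.

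The wider pathway was read from 4 lists of textbook members: partners and turnover enzymes of angiomotins, core and upstream Hippo genes, transcription partners of YAP and TAZ, and YAP and TAZ target genes. Of the target list, 15 of the 18 genes with at least 20 reads were at least 2-fold higher in A549 (beside 31% of all genes), 1 was lower (beside 29.2%) and 2 were within 2-fold. The median log2 ratio of the 18 was 4.91, or 4.98 with counts under 3 reads set to 3, against 0.02 for all genes. IGFBP3, a carrier of insulin-like growth factors, was counted 173 times in A549 and never in HEK293T T12. Against a floor of 3 reads in the latter it was at least 126-fold higher. With counts under 3 reads set to 3, it was 85.3-fold above the highest HEK293T library. ARHGEF17, a guanine nucleotide exchange factor, was 1.15-fold higher (interval 1.02 to 1.29). BIRC5, an apoptosis inhibitor and mitotic protein, went the other way, from 210 CPM with HEK293T T12 to 11.3 CPM, 18.5-fold lower (interval 11.5 to 32.0). Several of these targets also respond to other pathways, and the part of YAP and TAZ in their levels was not tested.

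The core and upstream Hippo genes were spread in both directions. Of 22 with at least 20 reads, 11 were at least 2-fold higher in A549 (beside 31% of all genes), 7 lower (beside 29.2%) and 4 within 2-fold, with a median log2 ratio of 0.85, or 0.90 with counts under 3 reads set to 3. WWC3, of the KIBRA family of scaffolds, went from 0 reads with HEK293T T12 to 112 with A549, at least 81.4-fold higher than that library. The highest HEK293T library had 3.08 CPM, and A549 was 24.3-fold above it. FAT1, an atypical cadherin, was 15.5-fold higher than with HEK293T T12 (interval 9.16 to 28.1) and 6.67-fold above the highest HEK293T library. BTRC, the ubiquitin ligase subunit that recognises phosphorylated YAP, was 6.91-fold lower (interval 4.34 to 11.6). MAP4K4, a kinase that can activate LATS, was the 1 gene called between primers among the 55 list genes tested, a share near the 1.35% of all genes. It was lower with anchored primers at a log2 fold change of -1.39 ± 0.29 (SE, edgeR adjusted p = 0.0434). The call was kept with DESeq2 (DESeq2 adjusted p = 0.000576) and with 3 edgeR alternatives. These were RLE in place of TMM (edgeR adjusted p = 0.0422), no filter on low counts (0.00595) and the mean over transcript entries (0.0480). The call was lost with any 1 of the 6 libraries left out (edgeR adjusted p from 0.0523 without T12 to 0.145 without T18VNN). It was also lost with library totals in place of TMM (log2 fold change -0.22, edgeR adjusted p = 0.670). MAP4K4 had 996 CPM in A549, below the 1049 to 3463 CPM of the HEK293T libraries.

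Among angiomotin partners, 4 of 10 genes with at least 20 reads were at least 2-fold higher in A549 (beside 31% of all genes), 2 lower (beside 29.2%) and 4 within 2-fold. The median log2 ratio was 0.71, or 0.75 with counts under 3 reads set to 3. The tankyrases TNKS and TNKS2, which mark angiomotins for degradation, were 3.04-fold (interval 2.16 to 4.29) and 3.80-fold (interval 3.09 to 4.68) higher than with HEK293T T12. TNKS in A549 lies above all 6 HEK293T libraries, but TNKS2, at 172 CPM, lies within their range of 45.3 to 174.9 CPM and was 1.68-fold above their median. USP9X, a deubiquitinase that acts on AMOT, was 1.55-fold lower (interval 1.29 to 1.87).

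Of the transcription partners, 2 of 7 were at least 2-fold higher (beside 31% of all genes), 2 lower (beside 29.2%) and 3 within 2-fold, with a median log2 ratio of -0.01. Both shares are near those of all genes. SMAD3 and SMAD2, which relay TGF-beta signals and can bind YAP and TAZ, were 38.9-fold (interval 26.0 to 60.7) and 4.72-fold (interval 3.24 to 6.98) higher in A549 than in HEK293T T12. T12 is the lowest HEK293T library for SMAD3, and A549 was 12.7-fold above the median and 8.28-fold above the highest of the 6. TEAD4, a TEAD factor like TEAD1, had 64 reads with HEK293T T12 and 1 with A549. It was 29.4-fold lower in A549, with a wide interval of 5.08 to 1178. T12 is the highest HEK293T library for TEAD4, at 19.6 CPM, and T18VNN the lowest, at 1.39 CPM against 0.667 CPM in A549. With counts under 3 reads set to 3, the HEK293T median was 6.28 times A549 and the lowest library 0.69 times A549. TP73, a relative of p53, had 93 reads with HEK293T T12 and 0 with A549, at least 14.2-fold lower against 3 reads in A549. The HEK293T libraries ran from 3.16 CPM with T30 to 38.4 CPM. Their lowest was 1.58-fold and their median 10.7-fold above that floor of 3 reads.

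**Figure D5:**
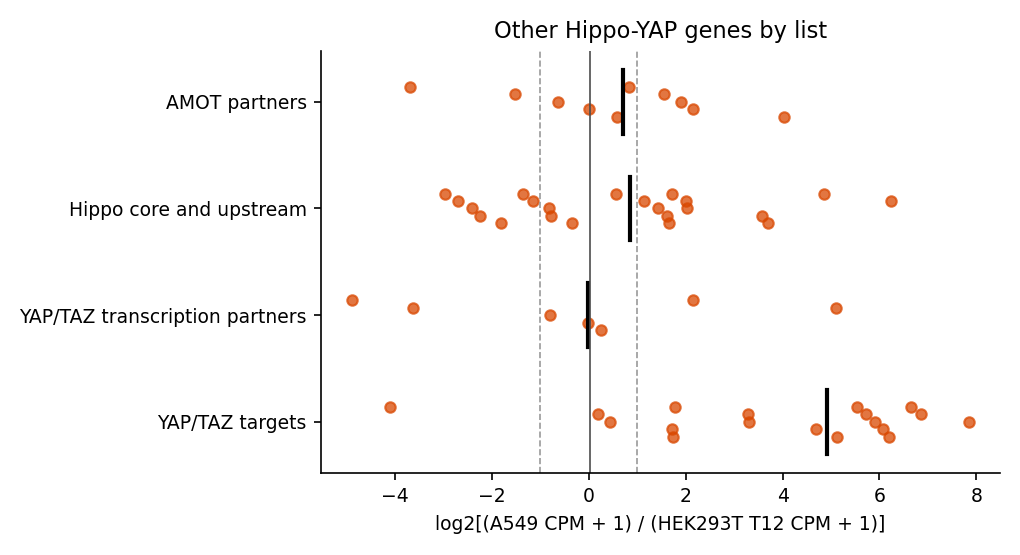
Log2 ratio of CPM + 1 in A549 T12 to that in HEK293T T12 (x axis) for genes of the 4 lists that reached 20 reads in 1 of those libraries, 1 point per gene, stacked vertically for visibility, with black bars at the list medians. The thin line is the median of all genes, 0.02, and the dashed lines mark 2-fold; the targets have a median of 4.91, and the other 3 lists have medians from -0.01 to 0.85.

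Likeness to AMOT across the 7 libraries was measured as the root mean square difference of log2(CPM + 1), each gene centred on its mean, over 8116 genes with at least 20 reads in 5 or more libraries. The closest were NEFM at 0.33, HLA-C at 0.52, CDKN2A at 0.65, CDX2 at 0.67 and XIST at 0.68, against a median of 3.53. NEFM encodes a neurofilament subunit and had 906 to 1815 CPM in HEK293T and 0 reads in A549. The HLA-C value is uncertain, since reads of this gene can be split over near-identical entries. AMOTL1 was most like PSMB7 (0.13), FARP1 (0.14), CDCA4 (0.15), LZTR1 (0.18) and TAS1R3 (0.19), against a median of 1.00. TEAD1 was most like ZBTB4 (0.17), CLIP1 (0.25), ZBED5 (0.30), RNF213 (0.31) and CAST (0.33), against a median of 1.23. The gap between the 2 cell lines dominates these distances, and the libraries share their cell line and scaling.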

How the data were processed

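RNA-seq reads of 7 libraries were analysed, grouped by sample titles. Per the submitters' processing notes, FastQC 0.11.8, cutadapt 2.10, Trimmomatic 0.39, HISAT2 2.2.1 and SAMtools were used with hg19 (GRCh37). The authors deposited read counts per RefSeq transcript, in the layout of RSeQC's FPKM_count output per the file headers, with FPM, a signal scaled to the library total, and FPKM, which also divides by transcript length. The handling of strand and of reads with several matches is not given in the sources used here. A read counts for each transcript it overlaps.

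Of 61177 entries, 60133 (98.3%) matched a RefSeq symbol and the other 1044 were left out, which gave 26625 genes with 1 entry each. Library totals ranged from 7491993 to 25578543 reads. CPM used the reads on genes. A549 and HEK293T T12 were compared at 2-fold on log2(CPM + 1), a pseudocount of 1, for genes reaching 20 reads in either library. This scale understates changes of low genes. Ratios have 95% exact conditional binomial intervals (SciPy 1.17.1). The reads carry no molecular identifiers and are not independent molecules, so intervals and the floor of 3 reads cover counting error only. For anchored against unanchored libraries, edgeR 4.0.16 was run in R 4.3.3, with DESeq2 1.42.0 as an alternative. The edgeR fit used the quasi-likelihood test after filterByExpr and TMM, Benjamini-Hochberg at 0.05, and had a biological coefficient of variation of 0.484. The edgeR step was run on simulated data with large changes planted in genes of many reads only. That run thus says nothing about smaller changes or the low genes of the set. Other scalings, pseudocount, filters, entries, comparators and leaving out each library were also tried.

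From each list the text names the 2 highest and 2 lowest by log2 ratio that reached 50 reads in either T12 library, and genes called between primers. Some genes that this rule names are not reported here. Likeness names the 5 closest genes to AMOT and to the 2 genes with most reads after it. The 10 genes, the lists and the markers were chosen with earlier results of these data known.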

Additional observations from a re-analysis of the deposited data

Results flagged for a closer look

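CCN2 in the HEK293T T12 library stood far from the other 5 HEK293T libraries, at 6.12 CPM (20 reads) against 0 to 1.07 CPM (0 to 3 reads). The gap was more than Dixon's 95% critical value allows for 6 values. One such value was found among the 10 genes, and chance flags about 1 in 20, or 0.5 of 10. The comparison of A549 with HEK293T T12 uses this library. CCN2 in A549 was 2.62-fold above T12. With counts under 3 reads set to 3, the median of the 6 HEK293T libraries was 0.951 CPM, which rests on that floor, and the ratio to it was 16.8.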

How the results depend on the processing

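AMOT, AMOTL1, YAP1, WWTR1, TEAD1, LATS2, CCN1 and CCN2 kept the direction of their A549 ratio under all 11 alternatives, 5 of which, the other HEK293T libraries as comparators, were chosen after seeing the data. Under library total scaling 4 genes (YAP1, WWTR1, TEAD1 and CCN1) in place of 7 were at least 2-fold higher on the log2(CPM + 1) scale. The median log2 ratio of all genes then moved from 0.02 to -0.26. TMM left 5, with a median of -0.22. The AMOTL2 log2 ratio was -0.017 against T18V, and LATS1 was -1.03 against T18VNN. The comparisons of list genes with the median or highest HEK293T library, and the alternatives for MAP4K4, were also chosen after seeing the data.

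No gene of the set was called between primers under any alternative. With library totals in place of TMM, all log2 fold changes moved up (median of all genes 1.07). AMOT at 0.91 (edgeR adjusted p = 0.101), AMOTL1 at 1.02 (adjusted p = 0.122) and LATS2 at 0.24 (adjusted p = 0.788) then turned positive. Under that scaling LATS1 at 2.36 (edgeR adjusted p = 0.0560) and TEAD1 at 1.60 (adjusted p = 0.0631) came closest to the threshold. Leaving out each library gave -0.59 to 0.0061 for AMOTL1, the high end without T18VN. It moved other fold changes by over 1.5 times as well: AMOT ranged from -0.32 to -0.12, AMOTL2 from 0.36 to 1.10, YAP1 from 0.060 to 0.38, WWTR1 from 0.12 to 1.06, TEAD1 from 0.20 to 0.95, LATS2 from -1.52 to -0.39 and CCN1 from 0.34 to 1.19. For the whole table DESeq2 called 603 genes, edgeR without the filter 556, with library totals 2264 and with 1 library left out 46 (without T18VNN) to 111 (without T18VN), against 147.

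No paired analysis was possible because the shared replicate numbers have gene counts only for HEK293T T12 replicate 1 and A549 T12 replicate 2. Depth limits the low genes most: A549 has 1498224 reads on genes, and AMOT, LATS1 and AMOTL2 had 2, 8 and 20 reads there.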

Other observations

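A short LATS1 transcript entry of 2718 bases, singled out after its values were seen, had 7 reads in A549, where the full-length entry had 8. In the HEK293T libraries the short entry had 1 read with T12, 1 with T18V, 3 with T18VNN and 0 with T18, T30 and T18VN, where the full-length entry had 8 to 43. A read counts for each entry it overlaps, and the difference was not tested. For YAP1, the entries fell into 2 groups by count, with 137 and 124 reads in A549, 27 and 18 with T18V, 47 and 45 with T18, and equal counts in the other 4 libraries.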
